A study of Mus musculus with 9 samples.

Results

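The comparison set RNA from the sciatic nerves of 3 cKO mice against that from 3 control mice, 6 of the 9 libraries of the series. The cKO mice carried Cnp-Cre and floxed Tardbp alleles on both chromosomes (Cnp-Cre;Tardbp-fl/fl), and the control mice the same floxed alleles with no Cre (Tardbp-fl/fl). All were C57BL6 mice of 21 days, with 2 females and 1 male in each group, and each library came from 1 mouse. In the test, the 3 cHet libraries (Cnp-Cre;Tardbp-fl/+) entered the estimate of the spread only. Groups were read from the sample titles. The genotype field of cKO mice ID-2744 and ID-2747 names the cHet genotype instead, which would leave 1 cKO mouse, and that of cHet mouse ID-2742 names the control genotype. The Cre sits in the Cnp locus and recombines in Schwann cells and, in the central nervous system, in oligodendrocytes. Fibroblasts, endothelium, macrophages and axons of the nerve would then keep TDP-43, but no value here is split by cell type. The paper shows TDP-43 kept in cells other than Schwann cells for cKO mice made with Dhh-Cre.

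TDP-43, encoded by Tardbp, is an RNA-binding protein that binds UG-rich stretches, mostly within introns, and keeps cryptic exons out of mature transcripts. A transcript that takes up such an exon often carries an early stop codon and is removed by nonsense-mediated decay. Schwann cells wrap the axons of peripheral nerves in myelin, a membrane rich in cholesterol and long-chain fatty acids that these cells largely make themselves, and they respond to nerve damage by secreting cytokines and matrix proteins. Values are given below in normalized TPM, a measure of transcript share corrected for length and scaled further by the authors, in the order of mice ID-2743, ID-2746 and ID-2754 for the control and ID-2744, ID-2747 and ID-2748 for the cKO. Because whole nerve was sequenced, a lower share of cells of a type and less RNA in each of them cannot be told apart.

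The 6 libraries gave 15043 of 36121 genes a mean of 1 or more, and of these 142 were higher and 96 were lower in the cKO nerves at an adjusted p under 0.05 by limma. These are 0.944% and 0.638% of the genes tested, and 1.58% together. In all 238 the 3 cKO values lay outside the range of the 3 control values, which held for 8.89% of the tested genes in the upward and 8.52% in the downward direction. The size of the change, as the absolute log2 fold change, had a median of 1.05 among the genes called higher and of 0.83 among those called lower, with 72 and 31 genes at 1 or above. The median log2 fold change of all tested genes was -0.02. With only the 6 libraries in the fit 39 genes were higher and 11 lower, all of them among the 238.

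**Figure D1:**
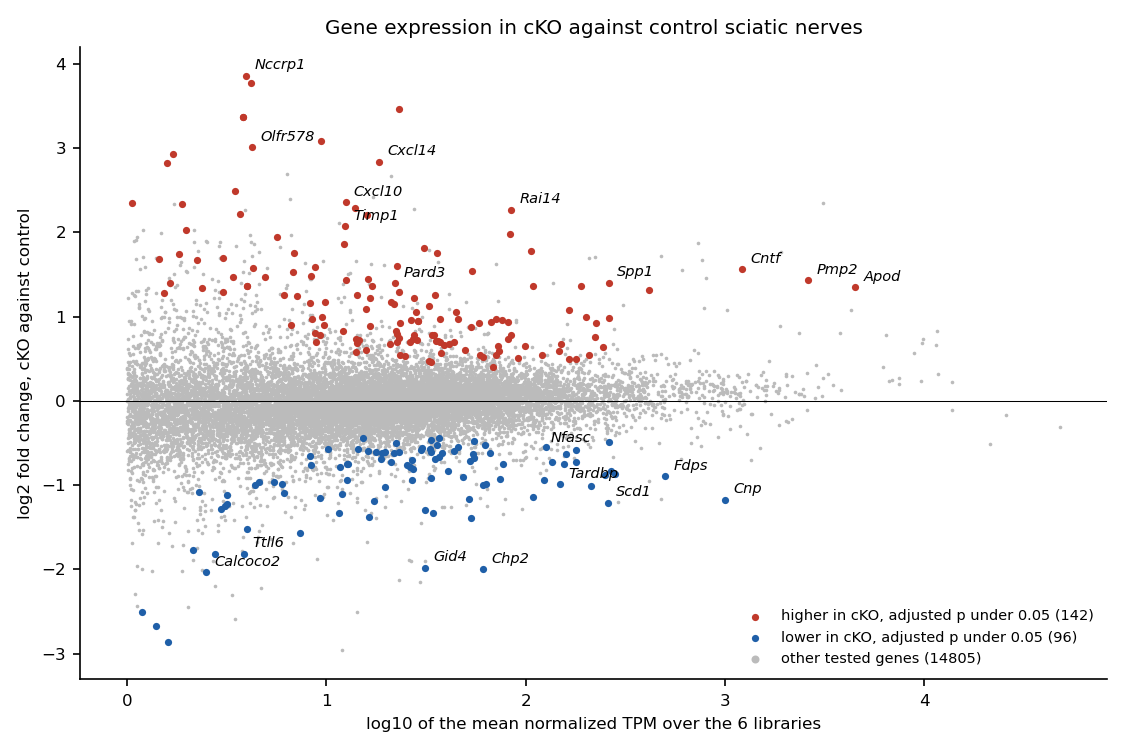
Difference of cKO from control as log2 fold change for each tested gene (y axis) against log10 of its mean normalized TPM over the 6 libraries (x axis), with genes at an adjusted p under 0.05 in red (142 higher in cKO) and blue (96 lower). Nccrp1 stands at 3.86, while the abundant genes Cntf, Pmp2 and Apod rose by 1.56, 1.43 and 1.35.

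The targeted gene was read first. Tardbp stood at 185, 194 and 217 in the control and 103, 94.2 and 103 in the cKO nerves, 50.3% of the control mean, with no overlap (log2 fold change -0.98, standard error 0.09, adjusted p = 0.00218 from limma). The value covers all exons and all cells of the nerve. The call held without any one of the 9 libraries (adjusted p 0.00611 to 0.0196 from limma). By the two-sided exact permutation test on the 6 nerves p was 0.1, and no smaller value is possible with groups of 3. Cnp, the myelin enzyme whose locus carries the Cre, fell from 1168, 1267 and 1700.5 to 554, 799 and 498 (log2 fold change -1.17, adjusted p = 0.0401 from limma). Its call held without only 1 of the 9 single libraries (adjusted p 0.0377 to 0.154). In the cHet nerves, which also carry Cnp-Cre, Cnp stood at 640, 849 and 803 (mice ID-2742, ID-2745 and ID-2750). The cKO and control mice differ in the Cre as well as in Tardbp, and this comparison cannot tell their effects apart.

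Schwann cell markers were abundant in both groups. Their summed values were 100700 to 128830 in the control and 75940 to 105760 in the cKO, and none of the 11 was called (median log2 fold change -0.16). Other tissues differed between libraries more than between groups. Neuron markers (18 genes, averaged on the log2 scale) were high in control mouse ID-2746 and cKO mouse ID-2748, by 3.64 and 2.57 over the median library of the 6. Skeletal muscle markers were high in control mouse ID-2743 and cKO mouse ID-2748 (4.89 and 3.58 above that median). Adipocyte markers were high in control mice ID-2743 and ID-2754 (2.17 and 2.64) and lowest in control mouse ID-2746 (-1.40), with the 3 cKO libraries in between (-0.05 to 0.01). Mitochondrial transcripts were lowest in control mouse ID-2754 (-1.03), and each of the 13 had a log2 fold change above 0 in the cKO (median 0.66), with no call. Across genes, Pearson's r of the log2 values was 0.895 to 0.973 for the 6 pairs within a group and 0.919 to 0.959 for the 9 pairs between groups, so that the genotypes do not stand apart over all genes.

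**Figure D2:**
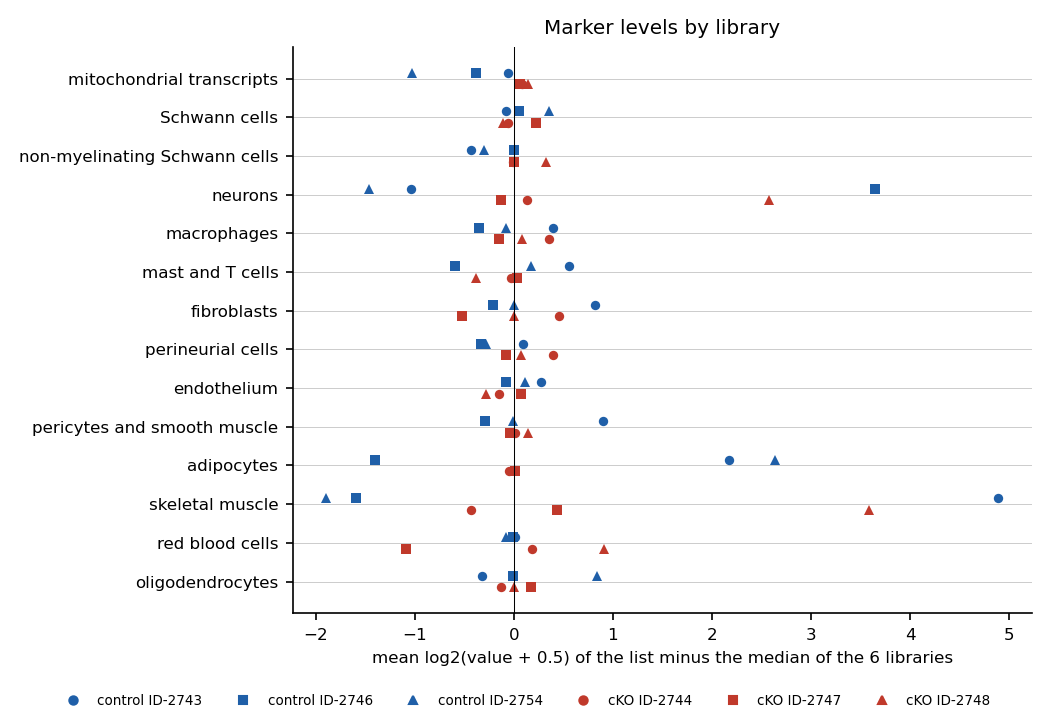
Mean log2(value + 0.5) of each marker list in each library minus the median of the 6 libraries (x axis), in blue for control and red for cKO with a symbol for each mouse. Neuron, adipocyte and skeletal muscle markers spread over more than 3 units within the control group, while Schwann cell markers stay between -0.11 and 0.35.

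The largest rises were in genes with little RNA in control nerves. Nccrp1, an F-box associated protein gene, was listed at 0, 0.123 and 0.065 in the control and stood at 7.11, 10.8 and 5.72 in the cKO (log2 fold change 3.86, standard error 0.32, adjusted p = 0.00185 from limma). The olfactory receptor gene Olfr578 went from 0.6101, 0.545 and 0.484 to 7.56, 8.53 and 7.62 (log2 fold change 3.01, adjusted p = 0.000498 from limma). Nccrp1 overlaps Samd4b on the same strand, which had a log2 fold change of -0.11. Nccrp1 and Olfr578 were near the floor of the table in every control nerve and clearly above it in every cKO nerve. Gadl1, an acidic amino acid decarboxylase of taurine and beta-alanine formation, rose from 0.775, 0.895 and 0.4396 to 5.33, 6.17 and 7.14 (log2 fold change 2.49, adjusted p = 0.00885 from limma). Mt4, a metallothionein of squamous epithelia, rose to 3.14, 3.13 and 4.12 from 0.597, 0.372 and 0 (log2 fold change 2.33, adjusted p = 0.0296 from limma). The GABA receptor subunit gene Gabrr2 reached 5.99, 8.19 and 4.76 against 1.26, 0.345 and 1.47 in control nerves (log2 fold change 2.22, adjusted p = 0.0266 from limma), and Ak7, an adenylate kinase of motile cilia, 3.13, 4.05 and 3.18 against 0.875, 0.3002 and 0.312 (log2 fold change 2.03, adjusted p = 0.0345 from limma). The pseudocount of 0.5 understates the change of these low genes, and Mt4, Gabrr2 and Ak7 kept their calls without only 2, 3 and 2 of the 9 single libraries.

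Rai14 had the smallest adjusted p of all genes. It encodes ankycorbin, an ankyrin repeat protein that associates with actin. Its values were 31.1, 27.8 and 27.6 in the control and 149, 131 and 141 in the cKO nerves (log2 fold change 2.27, standard error 0.09, adjusted p = 4.78e-05 from limma). Every cKO nerve stood above 130 and every control nerve below 32. Gpr137c, a membrane protein gene of the GPR137 family, rose from 4.197, 7.64 and 4.71 to 23.6, 26.7 and 29.4 (log2 fold change 2.21, adjusted p = 0.00218 from limma), and Plk5, a polo-like kinase family member, from 3.82, 3.47 and 6.24 to 20.8, 27.9 and 21.8 (log2 fold change 2.29, adjusted p = 0.00649 from limma). Both were separated in all libraries, as all called genes were. The chemokine genes Cxcl14 (3.799, 4.13 and 4.31 in the control, 25.3, 32.7 and 40.4 in the cKO) and Cxcl10 (5.16, 3.49 and 2.804 and 23.5, 18.8 and 21.1) had log2 fold changes of 2.84 and 2.36 (adjusted p = 0.000733 and 0.00193 from limma). Timp1, an inhibitor of matrix metalloproteinases, rose from 5.696, 4.22 and 3.499 to 16.6, 19.7 and 24.6 (log2 fold change 2.07, adjusted p = 0.00554 from limma), while Syn1, which overlaps it on the opposite strand, was at -0.36 (adjusted p = 0.941).

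Among the genes that fell, Gid4 was the most sharply set apart. It encodes the substrate receptor of the CTLH ubiquitin ligase, which binds proteins with an N-terminal proline. Gid4 stood at 49.2, 50.1 and 51.7 in the control and 12.7, 13.3 and 11.3 in the cKO, 24.7% of the control mean (log2 fold change -1.98, standard error 0.09, adjusted p = 7.62e-05 from limma). Of the 12 members of that complex it alone was called, and the median of the list was 0.08. Ttll6, a tubulin polyglutamylase gene, fell from 6.55, 6.202 and 6.06 to 1.51, 1.45 and 1.33 (log2 fold change -1.81, adjusted p = 0.00218 from limma), the only call among 11 tested enzymes that add or remove glutamate on tubulin (median -0.20). Chp2, which encodes a calcineurin B homologous protein that binds sodium/proton exchangers, fell from 82.3, 101 and 110.01 to 21.3, 29.4 and 21.8 (log2 fold change -1.997, adjusted p = 0.00218 from limma). In these 3 genes the lowest control value was over 2 times the highest cKO value.

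Calcoco2, the gene of the autophagy receptor NDP52, stood at 4.51, 5.16 and 3.18 in the control and 1.02, 0.479 and 0.536 in the cKO (log2 fold change -2.03, adjusted p = 0.0115 from limma), but none of 25 other genes of autophagy and lysosome control was called. Gpat3, a glycerol-3-phosphate acyltransferase of triglyceride synthesis, fell to 1.56, 0.401 and 0.952 from 4.92, 3.095 and 5.55 (log2 fold change -1.82, adjusted p = 0.0475 from limma). Its adjusted p was 0.0564 to 0.145 without any one library, so that this call rests on all 9. In the cHet nerves Gpat3 stood at 2.135, 1.28 and 1.62. Kcnmb4, a beta subunit of large-conductance potassium channels, went from 65.4, 80.8 and 86.4 to 25.6, 35.2 and 26.97 (log2 fold change -1.40, adjusted p = 0.00502 from limma), and Adgb, the gene of androglobin, from 13.6, 10.97 and 9.28 to 3.74, 3.29 and 3.24 (log2 fold change -1.57, adjusted p = 0.00403 from limma). The remaining genes of the 12 largest falls were Pcsk6, a proprotein convertase (log2 fold change -1.38), Npr3, the clearance receptor of natriuretic peptides (-1.33), Sgcd, a sarcoglycan (-1.33), Nhej1, a DNA end-joining factor (-1.29), and Mmp16, a membrane-bound metalloproteinase (-1.28), with adjusted p = 0.00957, 0.0171, 0.00932, 0.0466 and 0.0378 from limma. When single libraries were left out, Nhej1 kept its call in 1 of 9 fits and Mmp16 in 0 of 9 (adjusted p up to 0.151 and 0.129).

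**Figure D3:**
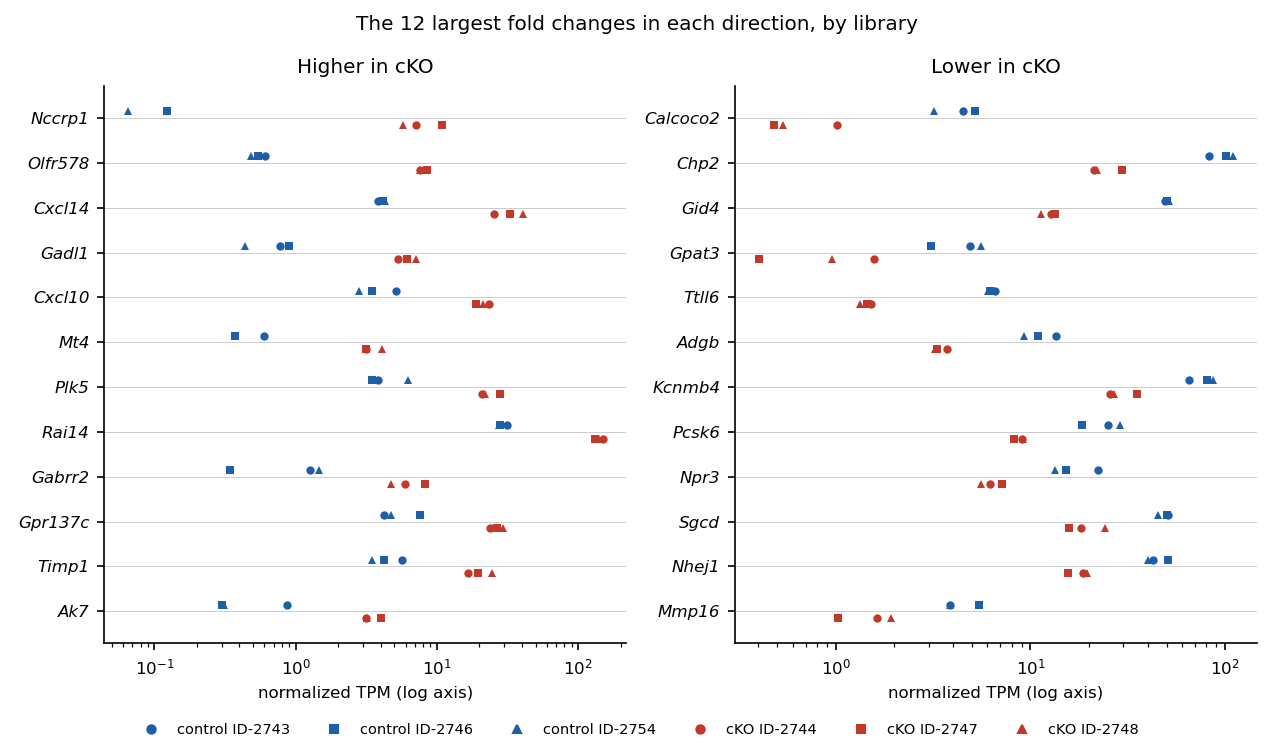
Normalized TPM (log x axis) of the 12 genes with the largest fold change in each direction, in blue for the 3 control and red for the 3 cKO libraries with a symbol for each mouse; a value of 0 is not drawn. The 24 genes were chosen among calls without overlap of the groups, so that their separation was fixed by the choice. Gid4 stands at 49.2 to 51.7 in control and 11.3 to 13.3 in cKO nerves.

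By the difference of means in normalized TPM, the 5 largest rises among the called genes were those of Apod, Pmp2, Cntf, Emid1 and Spp1. Genes that were not called, among them mitochondrial transcripts and Mt2, had larger differences than most of these. Apod, the gene of apolipoprotein D, a lipid carrier of endoneurial and other cells, rose from 2718, 2548 and 2302 to 8037, 5729 and 5715 (log2 fold change 1.35, adjusted p = 0.0128 from limma). Pmp2, a fatty acid binding protein of myelin, rose from 1509, 1647 and 1130.2 to 3649.5, 4171 and 3602 (log2 fold change 1.43, adjusted p = 0.00852 from limma). In both the lowest cKO nerve was at more than 2 times the highest control nerve. Emid1, an EMI domain protein of the matrix, rose from 214, 224 and 280.4 to 584, 651 and 551 (log2 fold change 1.32, adjusted p = 0.00502 from limma), and Spp1, the gene of osteopontin, from 161, 157 and 114 to 351, 389 and 393 (log2 fold change 1.40, adjusted p = 0.0115 from limma). Cntf is given with its pathway below. Among the 5 largest falls of called genes were Cnp and the lipid synthesis genes Fdps and Scd1, while Mbp, Pmp22 and Hmgcs1, which were not called, differed by more in normalized TPM than Fdps and Scd1.

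Cytokines that signal through the gp130 receptor chain and their downstream genes included 5 genes that rose and none that fell among 19 tested (median log2 fold change 0.22, against -0.02 for all genes). Among all tested genes, 0.944% were called higher and 0.638% lower. Of the ligands, Cntf, ciliary neurotrophic factor, a cytokine stored by myelinating Schwann cells, stood at 539, 588 and 704 in the control and 1572, 2481 and 1465 in the cKO (log2 fold change 1.56, standard error 0.21, adjusted p = 0.0115 from limma). Clcf1, the gene of cardiotrophin-like cytokine factor 1, went from 2.28, 1.77 and 1.99 to 5.99, 5.32 and 6.51 (log2 fold change 1.36, adjusted p = 0.0312 from limma). Both ligand genes were higher in every cKO nerve than in any control nerve, as all genes called higher were.

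The receptor genes were not called. Il6st, which encodes gp130, had a log2 fold change of 0.30, Lifr one of -0.47 and Osmr one of 0.58 (adjusted p = 0.372, 0.393 and 0.117 from limma), and Stat3, the transcription factor of the pathway, one of 0.45 (adjusted p = 0.22). The target genes Socs3, a feedback inhibitor, and Bcl3, a nuclear regulator of NF-kappaB, stood at 10.01, 9.08 and 9.84 and 5.9, 6.96 and 4.74 in the control and at 24.1, 26.5 and 19.4 and 13.3, 12.1 and 15.9 in the cKO (log2 fold changes 1.22 and 1.17, adjusted p = 0.0203 and 0.0179 from limma), without overlap. Socs1, Socs2 and Cish, other feedback inhibitors, had log2 fold changes of -0.13, -0.01 and -0.40 and were not called. Without any one library 2 to 5 of the 19 genes were called, and without the libraries high in neuron, adipocyte or skeletal muscle markers none was. The row of Clcf1 holds the same values as that of a gene without a symbol, and Cntf overlaps Zfp91 on the same strand, which had a log2 fold change of 0.04.

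Genes of nerve injury, listed for their known induction after nerve damage, gave 4 calls among 20 tested, all higher. Of all tested genes 0.944% were called higher. Like the other lists, this one was set down with earlier results of these data known. Its median was 0.41, and 11 of its genes lay above 0 at an unadjusted p under 0.05, as did 6.49% of all tested genes. Tnfrsf12a, the receptor of the cytokine TWEAK, stood at 16.6, 16.7 and 14.97 in the control and 50.1, 59.6 and 56.9 in the cKO (log2 fold change 1.75, standard error 0.11, adjusted p = 0.000392 from limma). The gene of its ligand, Tnfsf12, fell by 0.72 in log2 units (adjusted p = 0.0282, limma), and a read-through gene that spans it, Tnfsfm13, by 0.93, both named after their values were seen. Serpina3n, a secreted serine protease inhibitor, rose from 30.4, 44.98 and 26.9 to 120.3, 137 and 143 (log2 fold change 1.98, adjusted p = 0.00414 from limma). Timp1 and Spp1 were the other calls. The metallothionein genes Mt1 and Mt2, at 1.77 and 2.34 on the log2 scale, did not pass (adjusted p = 0.0681 and 0.0757 by limma), and Atf3, a transcription factor induced in injured nerve, was at -0.20 (adjusted p = 0.786).

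Of 15 tested chemokines and macrophage growth factors, Cxcl14 and Cxcl10 were the only calls. Ccl2, which attracts monocytes, stood at 16.8, 10.7 and 6.87 in the control and 28.7, 20.5 and 29.9 in the cKO (log2 fold change 1.24, adjusted p = 0.172 from limma), and Csf1, the macrophage growth factor, at 17.1, 11.6 and 12.9 and 16.4, 12.7 and 16.6. None of 17 macrophage markers was called, their median log2 fold change was 0.03, and their summed values were 515 to 898 in control and 615 to 852 in cKO nerves. The interferon response, of which Cxcl10 is a known target, had no call among 23 genes and a median of -0.08.

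Among 22 AP-1 and immediate early genes, which neural and growth factor signals induce within minutes, Junb rose from 10.9, 12.1 and 16.6 to 30.4, 42.5 and 26.6 (log2 fold change 1.29, adjusted p = 0.0269 from limma) and Ier3 from 10.3, 10.7 and 10.3 to 16.9, 20.2 and 16.01 (log2 fold change 0.73, adjusted p = 0.0304 from limma). A further 7 were higher at an unadjusted p under 0.05, as were 6.49% of all tested genes. Arc, Fos and Egr3 had the largest log2 fold changes of these 7 (1.20, 0.96 and 0.88). Jun, a driver of the repair state of Schwann cells, had 0.22 (adjusted p = 0.634 from limma). Targets of the Hippo pathway effectors YAP and TAZ gave 2 calls of 17, F3, tissue factor (from 26.9, 29.7 and 24.2 to 43.6, 46.4 and 42.8, log2 fold change 0.71, adjusted p = 0.0121 from limma), and Ccn1, a matricellular protein (from 22.7, 19.6 and 18.3 to 38.2, 35.5 and 31.3, log2 fold change 0.78, adjusted p = 0.0189 from limma). Junb and Ier3 each kept their call without 2 of the 9 single libraries only (adjusted p up to 0.1 and 0.113), and the Hippo list had 0 to 2 calls without any one library. Genes of immature and repair Schwann cells gave 1 call of 18, Cdh2, which was lower, while 10 of the 18 lay above 0 (median 0.13) and 3 were higher at an unadjusted p under 0.05. These 3 were Shh, a hedgehog ligand, Gfap, an intermediate filament protein, and Tnc, a matrix glycoprotein, with log2 fold changes of 2.69, 1.66 and 0.99 (adjusted p = 0.109, 0.227 and 0.0564 from limma). Sox2, Ngfr and Gap43 were at -0.34, -0.09 and -0.64.

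Cholesterol synthesis runs from acetyl-CoA through mevalonate, isoprenoids and squalene to the sterol steps, and its enzymes are under joint control of the transcription factor SREBP2, with NF-Y binding CCAAT boxes beside it. All 20 genes listed had a log2 fold change below 0, from -1.14 to -0.41 with a median of -0.58. Of these, 7 were called lower, as were 0.638% of all tested genes, and none higher. At an unadjusted p under 0.05, 20 were lower (6.42% of all tested genes). In 19 no cKO value reached a control value, which held for 8.52% of all tested genes. Promoters of 4 of the 20 genes, chosen because they hold CCAAT boxes, are shown, so that their matches were fixed by the choice. Mvk and Lss were called lower, while Hmgcs1 and Idi1 were not called (adjusted p = 0.0976 and 0.182 from limma). The sequences are those of RefSeq for GRCm38.p6, 250 bases before to 50 after the start of the gene, read along the gene, with matches to CCAAT on either strand (CCAAT or ATTGG) and to the sterol regulatory element letters CACCCCAC (or GTGGGGTG) in capitals. Mvk lies at chr5:114444019-114444318 and Hmgcs1 at chr13:119690101-119690400, Idi1 at chr13:8885356-8885655 and Lss at chr10:76531355-76531654, all on the plus strand.
Mvk: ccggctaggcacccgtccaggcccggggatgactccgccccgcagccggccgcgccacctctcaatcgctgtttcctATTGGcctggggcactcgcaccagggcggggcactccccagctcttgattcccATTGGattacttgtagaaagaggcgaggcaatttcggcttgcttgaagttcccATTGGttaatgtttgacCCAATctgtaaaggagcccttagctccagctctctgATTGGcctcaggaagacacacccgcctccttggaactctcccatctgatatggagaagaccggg
Hmgcs1: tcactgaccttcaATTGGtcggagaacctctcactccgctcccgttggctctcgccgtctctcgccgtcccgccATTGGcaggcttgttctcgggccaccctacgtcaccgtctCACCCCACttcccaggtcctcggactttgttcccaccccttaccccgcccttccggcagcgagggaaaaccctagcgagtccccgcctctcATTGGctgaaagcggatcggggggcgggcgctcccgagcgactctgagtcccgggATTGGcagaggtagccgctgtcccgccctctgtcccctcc
Idi1: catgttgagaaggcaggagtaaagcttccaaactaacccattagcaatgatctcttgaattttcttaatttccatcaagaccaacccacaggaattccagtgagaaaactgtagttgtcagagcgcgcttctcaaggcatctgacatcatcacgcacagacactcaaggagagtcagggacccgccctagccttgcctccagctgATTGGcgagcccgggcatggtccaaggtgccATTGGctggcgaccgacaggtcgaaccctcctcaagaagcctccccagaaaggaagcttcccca
Lss: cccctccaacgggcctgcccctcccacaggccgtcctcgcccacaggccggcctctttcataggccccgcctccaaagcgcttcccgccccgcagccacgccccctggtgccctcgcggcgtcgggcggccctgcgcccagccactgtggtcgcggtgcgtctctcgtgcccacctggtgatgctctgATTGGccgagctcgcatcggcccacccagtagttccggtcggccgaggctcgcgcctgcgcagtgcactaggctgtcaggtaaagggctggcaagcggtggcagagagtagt

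The Mvk window holds 5 matches to CCAAT, that of Hmgcs1 4, that of Idi1 2 and that of Lss 1. A promoter was found for 15 of the 20 genes. Taking the first start listed for each gene, 13 of these (86.7%) held a CCAAT match. The share was 38.4% of tested genes and 37.9% of all RefSeq genes, counting here and below only genes with a promoter. Over all starts listed, 14 (93.3%) had a match in at least 1 window, against 42.6% and 41.1%. The sterol regulatory element letters were in 2 of the 15 (13.3%), Hmgcs1 and Acat2, against 2.98% of tested genes by the first start and 3.83% over all starts. Of 15 fatty acid synthesis genes with a promoter, 8 (53.3%) held CCAAT by the first start and 10 (66.7%) over all. A match is a description of the letters only.

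By step, Hmgcs1, the gene of cytosolic HMG-CoA synthase, had 1716, 1789.6 and 1536 in the control and 985, 1213 and 919.9 in the cKO (log2 fold change -0.70, adjusted p = 0.0976 from limma). Mvk, mevalonate kinase, fell from 82.2, 82.1 and 75.1 to 50.5, 60.5 and 45.4 (log2 fold change -0.62, adjusted p = 0.0466 from limma). In both of these early steps every cKO nerve lay below every control nerve, as in 8.52% of all tested genes. Hmgcs1 did not pass the test.

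Fdps, which makes farnesyl diphosphate, had the tightest control values, 639.8, 658 and 647, against 339.9, 416 and 301 in the cKO (log2 fold change -0.89, standard error 0.13, adjusted p = 0.0172 from limma). Fdft1 and Sqle, which make squalene and its epoxide, fell by 0.59 and 0.55 in log2 units (adjusted p = 0.0374 and 0.0389, limma). Lss, which closes the sterol rings, fell from 166, 154 and 127 to 83.5, 62 and 57.6 (log2 fold change -1.14, adjusted p = 0.0159 from limma), the largest change of the list. Called genes thus lay before, at and after the making of squalene.

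Genes of fatty acid and glycerolipid synthesis had 5 calls, all lower, among 20 tested, with a median of -0.42. Of all tested genes 0.638% were called lower. In this list 10 were lower at an unadjusted p under 0.05, as were 6.42% of all tested genes. Scd1, a desaturase that makes oleic acid, fell from 456, 338 and 294 to 146, 167 and 150.03 (log2 fold change -1.21, standard error 0.18, adjusted p = 0.0171 from limma). Acaca, the carboxylase that commits acetyl-CoA to fatty acids, fell from 72.3, 76.99 and 95.4 to 36.8, 35.7 and 49.7 (log2 fold change -0.999, adjusted p = 0.04 from limma). Elovl6, an elongase, fell by 0.72, Fads2, a desaturase of polyunsaturated fatty acids, by 0.76 and Acly, which supplies cytosolic acetyl-CoA, by 0.63 in log2 units (adjusted p = 0.023, 0.0294 and 0.0345, limma). Fasn, fatty acid synthase, had 184, 149 and 186 in the control and 93.2, 128 and 94.8 in the cKO (log2 fold change -0.72, adjusted p = 0.0673 from limma). The glycerolipid genes of the list, Dgat2, Agpat2, Dgat1, Lpin1 and Gpam, had log2 fold changes of -0.53, -0.45, -0.19, -0.14 and -0.02 and were not called, nor was any of 18 genes of cholesterol uptake, efflux and control (median -0.12).

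Adipocytes also express these lipid genes, and adipocyte markers moved with the groups in part. All 13 tested markers, of 14 listed, had a log2 fold change below 0 (median -1.24), none was called, and their summed values were 2516, 150 and 3420 in the control and 461, 531 and 489 in the cKO nerves. Adipoq, Plin1 and Lep, defining markers, were above 0 in the means of both groups (108, 52.6 and 6.63 in control, 19.98, 6.84 and 1.24 in cKO). Control mouse ID-2746 had a lower adipocyte sum than any cKO nerve, but the highest neuron marker level of the 6 libraries (3.64 above their median). In that library all 20 cholesterol synthesis genes lay above all 3 cKO nerves, as 35.4% of all tested genes did, and 12 of the 20 fatty acid synthesis genes did so. Without control mice ID-2743 and ID-2754, the median of the cholesterol list was -0.66 and that of the fatty acid list -0.31. That comparison has 1 control library, and the spread comes from the other groups. Leaving out any one library gave 0 to 7 calls for cholesterol synthesis, with 0 without cKO mouse ID-2748 and medians of -0.67 to -0.50, and 0 to 5 for fatty acid synthesis, with 0 without cKO mouse ID-2744 or ID-2748.

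**Figure D4:**
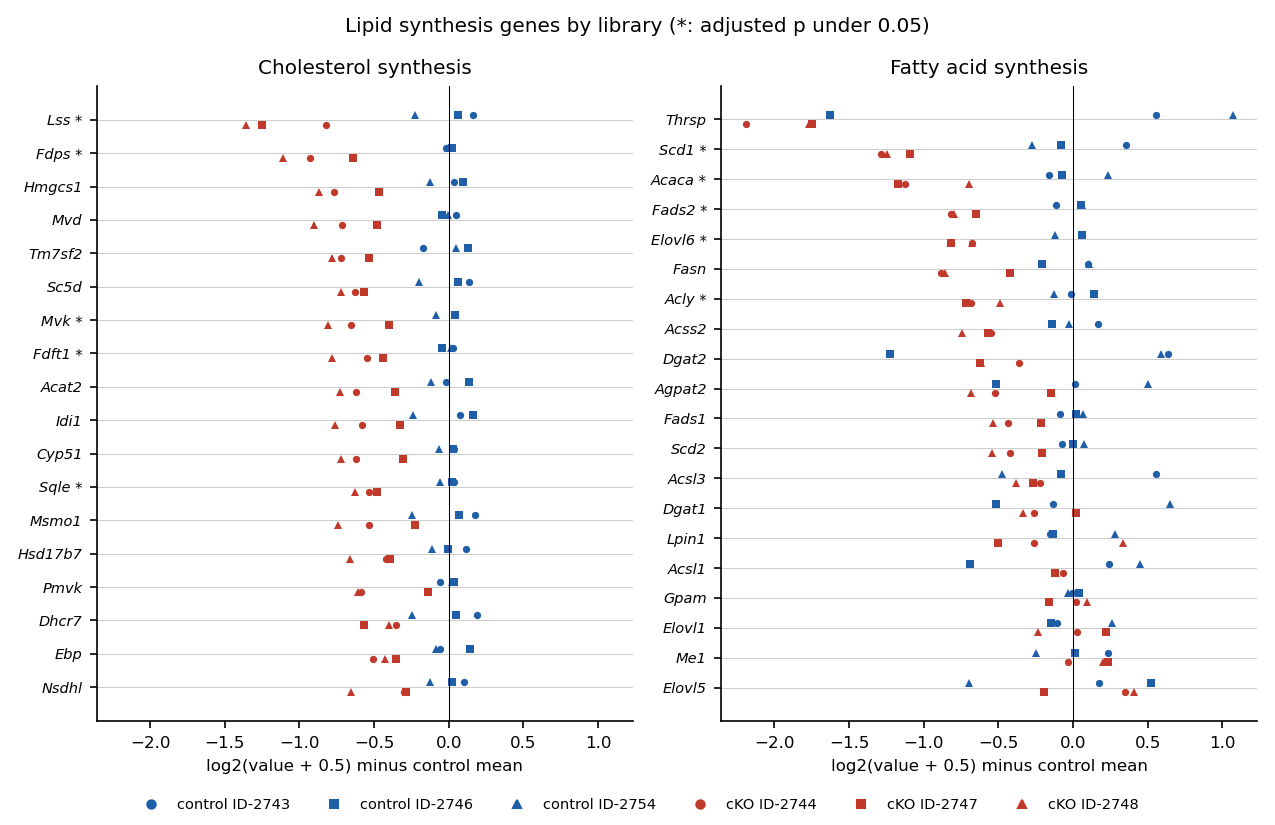
Log2(value + 0.5) of 18 of the 20 genes of cholesterol synthesis (left) and of the 20 of fatty acid synthesis (right) in each library minus the mean of the 3 control libraries (x axis), blue for control and red for cKO, with genes ordered by fold change and a star for an adjusted p under 0.05. The means of the 3 cKO nerves lie left of 0 for all cholesterol synthesis genes drawn, while Thrsp, Dgat2 and other genes at right spread widely among the control nerves.

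Sphingolipid and galactolipid synthesis, which makes the glycolipids of myelin, gave 1 call of 21. St3gal5, the sialyltransferase that makes the ganglioside GM3, fell from 18.7, 17.02 and 17.2 to 12.9, 12.7 and 12.9 (log2 fold change -0.44, adjusted p = 0.0427 from limma). Without any one library the adjusted p was 0.0741 to 0.15. Ugt8a, which makes galactosylceramide, had a log2 fold change of -0.54 and Cers4, a ceramide synthase, one of -0.57 (adjusted p = 0.102 and 0.112 from limma). The list had a median of -0.13.

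Of 22 myelin protein genes, Pmp2 and Cdh1 rose, Cnp fell and 19 did not pass, with a median of -0.14. Mbp and Pmp22, structural proteins of compact myelin, were at -0.51 and -0.16 on the log2 scale (adjusted p = 0.514 and 0.896, limma). Gjb1, the gap junction protein of myelin incisures, had 116, 117 and 149.9 in the control and 187, 222 and 181 in the cKO (log2 fold change 0.63, adjusted p = 0.0866 from limma). The 19 myelination transcription factors gave no call. Sox10 and Egr2, both needed for myelination, had log2 fold changes of -0.11 and 0.70 (adjusted p = 0.93 and 0.115 from limma).

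The junction and polarity proteins that hold the turns of a Schwann cell to each other gave 3 calls of 25. Pard3, a polarity scaffold that is placed at the axon side of myelinating Schwann cells, stood at 11.7, 12.6 and 11.6 in the control and 33.3, 30.1 and 33.2 in the cKO (log2 fold change 1.39, standard error 0.09, adjusted p = 0.000392 from limma). Cdh1, the gene of E-cadherin, which joins the turns of the noncompact myelin, rose from 44.7, 51.5 and 48.01 to 92.4, 90.6 and 101 (log2 fold change 0.97, adjusted p = 0.00225 from limma). Cdh2, the gene of N-cadherin, fell from 35.8, 35.8 and 32.9 to 17.7, 21.2 and 20.4 (log2 fold change -0.81, adjusted p = 0.0103 from limma). The cadherin genes thus moved in opposite directions in the same nerves, by 0.97 and -0.81.

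Nodal, paranodal and juxtaparanodal proteins gave 2 calls of 23, both lower, with a median of -0.22. Without any one library the median ran from -0.41 to 0.19, above 0 without control mouse ID-2746 (0.19) or cKO mouse ID-2744 (0.02), and 0 or 1 gene was called. Nfasc, the gene of neurofascin, whose glial form anchors the paranodal junction, had 111, 115 and 214 in the control and 103, 87.1 and 93.9 in the cKO (log2 fold change -0.56, 95% interval from -1.08 to -0.04), and was not called (adjusted p = 0.347 from limma). Its groups did not overlap, but control mouse ID-2754 stood well above the other nerves, and the log2 fold change without it was -0.26. The Nfasc value sums the glial and neuronal isoforms, so that it does not give the glial form alone. By RT-qPCR the paper reports a strong fall of the mRNA of the glial form, in nerves of cKO mice made with Dhh-Cre. Its western blot of such nerves did not detect the glial protein. From RNA-seq and RT-PCR of sciatic nerves of Cnp-Cre mice, it also reports a cryptic exon in most Nfasc transcripts of the cKO. That exon carries an early stop codon, and its use cannot be read from a value per gene. Cadm3, a cell adhesion molecule, fell from 192, 236 and 245 to 129, 129.7 and 145 (log2 fold change -0.73, adjusted p = 0.0374 from limma). Ackr1, which overlaps it on the same strand, had a log2 fold change of 0.23. Sptbn1, a spectrin, fell from 293, 327 and 295 to 215, 211 and 226 (log2 fold change -0.49, adjusted p = 0.0434 from limma). When single libraries were left out, Cadm3 kept its call in 2 of 9 fits and Sptbn1 in 0 of 9. Ezr, of Schwann cell microvilli, was at 0.42 on that scale (adjusted p = 0.0622, limma). The neuron markers had summed values of 203 to 4797 in control and 422 to 2136 in cKO nerves, 16 of 18 had a log2 fold change above 0 (median 0.40) and none was called. Their part in the result was not tested.

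Of 19 receptors for axonal and matrix signals in myelination, Igf1r, the receptor of insulin-like growth factor 1, fell from 16.3, 15.3 and 16.6 to 10.7, 8.55 and 8.82 (log2 fold change -0.75, adjusted p = 0.0189 from limma), and Ntrk3, that of neurotrophin 3, from 46.6, 45.03 and 45.6 to 31.8, 25.4 and 32.6 (log2 fold change -0.61, adjusted p = 0.0325 from limma). Ntrk3 lost its call without any one library (adjusted p 0.051 to 0.0947). Of 9 markers of non-myelinating Schwann cells, Chl1, a cell adhesion molecule, rose from 28.2, 26.9 and 20.1 to 46.1, 42.8 and 59.6 (log2 fold change 0.97, adjusted p = 0.0422 from limma), a call that was lost without any one library (adjusted p 0.0547 to 0.13).

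The known splicing targets of TDP-43 did not move one way. Of 13 tested, 2 fell, 1 rose and 10 did not pass, with a median of -0.07. Synj2bp, a mitochondrial outer membrane protein gene, fell from 23.5, 28.3 and 21.1 to 9.72, 10.1 and 11.02 (log2 fold change -1.19, standard error 0.12, adjusted p = 0.00407 from limma). A read-through gene on the same strand, Gm20498, which shares its exons, stood at 14.2, 26.99 and 19.2 in the control and 31.5, 50.1 and 38.3 in the cKO (log2 fold change 0.995, adjusted p = 0.0929 from limma), so that the values of this pair, which share reads, went opposite ways. Mib1, a ubiquitin ligase of Notch signalling, fell from 30.8, 37.2 and 32.2 to 19.8, 22.1 and 19.01 (log2 fold change -0.70, adjusted p = 0.0173 from limma), and Adnp2, a zinc finger protein gene, rose from 7.05, 6.61 and 6.48 to 11.7, 12.5 and 11.6 (log2 fold change 0.79, adjusted p = 0.0106 from limma). Sort1, Poldip3 and Eif4h, in which TDP-43 controls an exon, had log2 fold changes of 0.06, -0.06 and -0.07, as sums over all isoforms.

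Among 13 genes of TDP-43 and related RNA-binding proteins, Tardbp was the only call, and Hnrnpa1 and Matr3 had log2 fold changes of -0.04 and 0.19. Of 46 splicing regulators 1 was called, Celf1, which rose from 17.5, 20.2 and 19.4 to 32.1, 52.1 and 30.7 (log2 fold change 0.95, adjusted p = 0.0495 from limma). Its adjusted p was 0.0397 to 0.129 without any one library, and its row holds the same values as that of a gene without a symbol. None of 20 nonsense-mediated decay factors was called, and 16 lay above 0 (median 0.09), with Magoh and Eif4a3 of the exon junction complex at 0.49 and 0.38 (adjusted p = 0.218 and 0.124 from limma).

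Stretches of at least 6 TG repeats, the DNA letters of the UG runs that TDP-43 binds, were looked for on the sense strand of the annotated transcripts (GENCODE M21, GRCm38). They were in 18 of 96 genes called lower (18.8%), 13 of 140 called higher (9.29%) and 1952 of all 14840 tested genes with a transcript (13.2%). The median length of the longest transcript was 3700.5 bases in the genes called lower, 2584 in those called higher and 3231.5 in all. Of the runs in lower genes, 8 lay in a 3′ UTR, 4 in a 5′ UTR and 6 in transcripts without a coding sequence. Of those in higher genes, 4 lay in a 3′ UTR and 9 in transcripts without a coding sequence. Introns, where most TDP-43 sites lie, were not analysed here. Gid4 (chr11:60417145-60450927, plus strand) has a run of 19 repeats in a 5′ UTR of a transcript annotated for nonsense-mediated decay, and Kcnmb4 one of 11 in a transcript without coding sequence. Among genes called higher, Olfr578 has a run of 13 in a 3′ UTR and Tnfrsf12a one of 9 in a transcript without coding sequence.

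**Figure D5:**
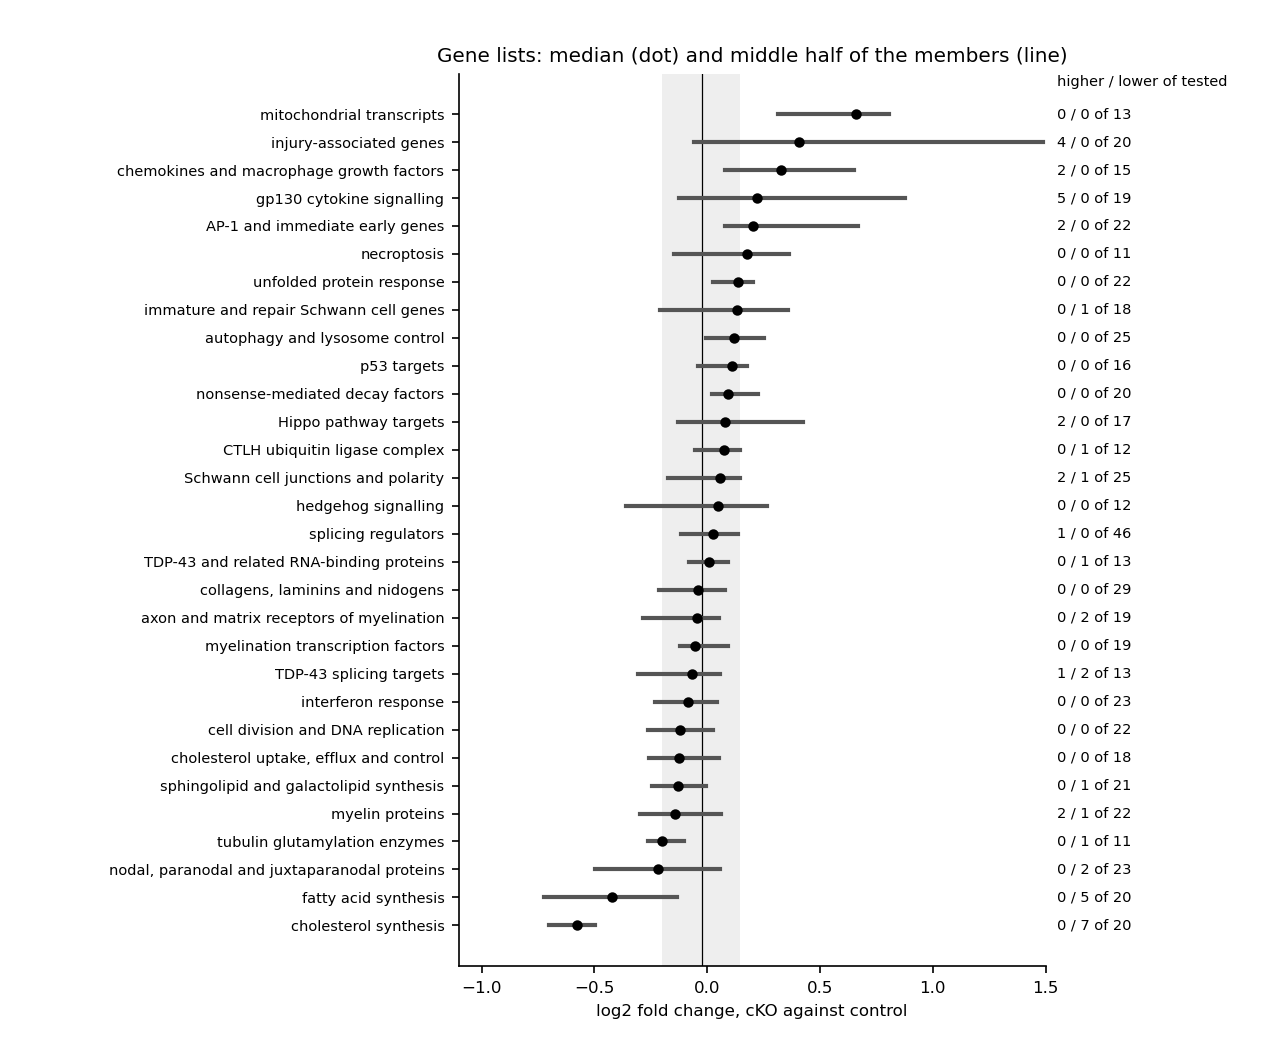
Median log2 fold change (dot) and interquartile range of the members (line) of each gene list between cKO and control, with the number called higher and lower of those tested at right; the grey band and the thin line give the interquartile range and the median of all tested genes. Cholesterol synthesis lies lowest at -0.58 with 7 genes called lower, and the injury list at 0.41 with 4 called higher.

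Of the 30 lists other than markers, 18 had at least 1 call and 12 had none, among them the unfolded protein response (22 genes, median 0.14), p53 targets (16, 0.11), necroptosis (11, 0.18), cell division (22, -0.12), collagens and laminins (29, -0.04) and hedgehog signalling (12, 0.05). The lists held 45 of the 238 calls, so that 193 lay outside all of them.

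Of the 238 calls, 42 held without any one of the 9 libraries and 29 under every alternative set for the fit, scaling and filter as well. Of these, 7 also held without each set of libraries high in neuron, adipocyte or skeletal muscle markers. The adipocyte set leaves 1 control library, whose spread is taken to be that of the other groups. The 7 were Rai14, Gid4, Tnfrsf12a, Pard3, Gpr137c and, named after their values were seen, Ppp6c and 1810010D01Rik. Olfr578 held wherever it was tested, but its mean was too low for the alternative with a minimum mean of 5. Ppp6c, the catalytic subunit of protein phosphatase 6, stood at 45.2, 52.7 and 44.8 in the control and 169.6, 169 and 155 in the cKO (log2 fold change 1.78, standard error 0.09, adjusted p = 7.62e-05 from limma). The uncharacterized gene 1810010D01Rik rose from 3.06, 3.96 and 3.33 to 36.6, 48.5 and 44.1 (log2 fold change 3.46, adjusted p = 0.000218 from limma). It overlaps Tpcn2, a lysosomal ion channel gene, on the same strand, which went from 14.6, 10.5 and 13.5 to 29.8, 28.4 and 29.7 (log2 fold change 1.17, adjusted p = 0.00469 from limma), so that reads may be shared between them. A test of whether the cKO effect differed between males and females rests on 1 male in each group and 3 residual degrees of freedom, so that its count of 0 genes (smallest adjusted p = 0.237 from limma, with 1001 genes at an unadjusted p under 0.05) does not show that the sexes respond alike.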

How the data were processed

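RNA was sequenced by the authors from the sciatic nerves of 9 mice (TruSeq RNA kit, HiSeq4000, paired ends). The deposited table is a signal, normalized TPM per gene and library, for 36121 genes. Tools and build listed in the submitters' processing notes are kallisto 0.44.0, with sleuth 0.30.0, on GRCm38. The annotation behind these values, strandedness and scaling are not given in the sources used; the study names an Ensembl release only for a separate alignment. Library sums were 934932 to 1158094, which plain TPM would not give, and the table holds no read counts, so that counting error could not be computed.

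Columns were assigned by the mouse ID that ends each title, and no column was left unused. Values were taken as log2(value + 0.5). All 9 libraries entered one limma model (version 3.58.1, R 4.3.3) with the 3 genotypes as groups and a mean-variance trend, on genes whose mean in the 6 compared libraries reached 1, with Benjamini-Hochberg adjustment over all 15043 and a threshold of 0.05. Every adjusted p comes from limma. A call is an adjusted p under 0.05. Rises and falls are meant on this scale.

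The members, the 43 gene lists (782 entries, 728 tested, 53 below the minimum mean) and the tests were chosen with earlier results of these data known, so that lists get counts and medians and no test. Named are Tardbp, Nfasc and Cnp, the 12 largest fold changes in each direction with a symbol of their own among calls without overlap, up to 4 called members of each list, and the 5 largest differences of means in each direction among calls without overlap; other list members are given to describe their list. Some genes that this rule names are not reported here, but counts and medians include them. On simulated data with 200 of 15043 genes changed, 150 genes were called and 6 of these had not been changed. The share found was 55% at a log2 change of 1 and 89% at 2. Each simulated gene varied on its own, without the shared spread of neuron, skeletal muscle and adipocyte RNA of the real libraries. These shares therefore need not hold for the real data.

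Among tested rows, 325 hold values identical to another row. Of 62 named genes, 29 overlap a gene on the opposite strand in GENCODE M21, whose reads cannot be told apart if strand was not used. Alternatives were other pseudocounts, filters and scalings, the 6 libraries alone, sex as a covariate, other variance settings and each library left out.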

Additional observations from a re-analysis of the deposited data

How the results depend on the processing

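Alternatives that left out the marker-high libraries were added after seeing the data; the others were planned. All 238 called genes that could be tested kept their sign under every alternative. Without a filter on low values 58 genes were lower. With the 6 libraries alone 39 were higher and 11 lower. Leaving out 1 library at a time gave 36 to 110 genes higher and 14 to 66 lower, with the lowest counts without cKO mouse ID-2744. Without the libraries high in neuron markers 12 were higher and 4 lower, without those high in adipocyte markers 17 and 2, and without those high in skeletal muscle markers 18 and 5. The log2 fold change of Tardbp was -1.03 (adjusted p = 0.0823 from limma) without the neuron-high and -0.95 (adjusted p = 0.0534) without the adipocyte-high libraries, and in the exact permutation test it was -0.98 with p = 0.1. These sets leave fewer samples, and the adipocyte set leaves 1 control library, whose spread is taken to be that of the other groups. Scaling to the same sum gave 51.3% of calls higher, against 59.7%. Of 62 named genes, 22 of the calls held without any one library. The paper describes sets of age-matched mice of the 3 genotypes, from one litter or from litters born close together. No paired analysis was made, because the labels give mouse IDs and do not tell which mice form a set. The table holds no read counts, so that limits of low values were not computed.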
